A study of Mus musculus with 12 samples.

Results

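The 2 single treatments of the study were set against each other: hippocampi that had been seeded with tau but received no extra acetate, and hippocampi from mice that received extra acetate but no tau. The members are the 6 of 12 sequenced mice whose labels give tau injection with the control diet (Tau control, 3 mice) or PBS injection with the acetate diet (PBS acetate, 3 mice). All 12 were wild-type C57Bl6/J mice, 6 months old at surgery, with a single injection of PBS or of 1 µg AD tau into the right dorsal hippocampus, and all were taken 6 months later after a remote recall test. AD tau is the sarkosyl-insoluble tau extracted from frontal cortex of patients with Alzheimer's disease (AD), so what was injected is protein of human origin that carries no transcript by which the labels could be checked, and the mice keep their own Mapt gene. The control diet is labelled as standard chow from TestDiet and the acetate diet as LabDiet 5001 with 5% Na-acetate. The study's methods describe the control as equal in calories, and the sources used here do not say whether the base chow was the same, so acetate and base chow cannot be told apart in the diet. Messenger RNA of the injected right dorsal hippocampus, a bulk tissue with neurons, glia and vessels, was sequenced. The 2 groups differed in both injection and diet, so a difference between them cannot be given to one of the 2 on its own. The values of the PBS-injected mice on the control diet (PBS control, 3 mice) are therefore printed beside many genes as the common reference.

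Acetate is taken into cells and joined to coenzyme A by acetyl-CoA synthetases, of which Acss2 works in the cytosol and nucleus, and acetyl-CoA is the donor for histone acetylation and for the synthesis of fatty acids and cholesterol. Tau is a microtubule-associated protein of axons whose aggregates recruit further tau and spread along connected neurons. Among the proteins that meet misfolded clients are the chaperones, which comprise the cytosolic heat shock proteins and the folding enzymes of the endoplasmic reticulum (ER).

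Between 13219793 and 19205843 reads were counted on genes in each of the 6 libraries. The 3 Tau control libraries (13219793 to 15153232) were all shallower than the 3 PBS acetate libraries (15291421 to 19205843), and with counts thinned to the smallest library the test below called 1 gene, Slc5a3. All 12 mice are labelled male, yet Xist, which coats and silences one X chromosome in females, stood at 919.8 to 1340 CPM (counts scaled to library size) in every library, and 8 Y-linked genes listed in the file had 0 counts in all 12 libraries together, so the labelled sex goes against the counts. Xist itself was not separated by treatment, with a log2 difference of -0.10 (95% interval -0.30 to 0.10). The labels give no date, run or batch for any mouse, so no within-batch values can be given.

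The distances between mice of the 2 single treatments overlapped those between mice of the same group. The distance between 2 libraries was taken as the root mean square difference of their log2 CPM over the 14742 genes tested. Over the 9 pairs of a Tau control with a PBS acetate library it ranged from 0.2995 to 0.3618, with a mean of 0.339. Within the Tau control group the 3 pairs gave 0.3297 to 0.3542 (mean 0.344), and within the PBS acetate group 0.2641 to 0.3188 (mean 0.292). The mean between the groups was below that within the Tau control group and above that within the PBS acetate group. The first of these orders turned when only the 10015 genes with a mean of at least 10 CPM were used, where the mean distance was 0.186 between the groups, 0.182 within Tau control and 0.156 within PBS acetate, still with overlapping ranges (0.1394 to 0.2048 between the groups, 0.1636 to 0.1952 and 0.1323 to 0.1784 within them). The 9 Pearson correlations between the groups were 0.9891 to 0.9925 across genes, which are not independent replicates. The closest of the 9 pairs was PBS acetate mouse 3 with Tau control mouse 1. Both groups were on average farther from PBS control, at a mean distance of 0.36 for Tau control (0.329 to 0.3953) and 0.384 for PBS acetate (0.3564 to 0.4168). These ranges overlapped that between the single treatments. The 3 PBS control mice differed among themselves by a mean of 0.331. Over the genes with at least 10 CPM the mean distances from PBS control were 0.196 for Tau control (0.1595 to 0.2438) and 0.222 for PBS acetate (0.1943 to 0.2574). All these distances share libraries and are given as a description without a test. On the first principal component of the 12 libraries, which held 20.9% of the variance, the PBS control mice were at -15.1, -16.3 and -20.2, the PBS acetate mice at 20.3, 19.3 and 8.68, and the Tau control mice at 3.28, 10.3 and -4.92, between the other groups, with Tau control mouse 2 past PBS acetate mouse 3.

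**Figure D1:**
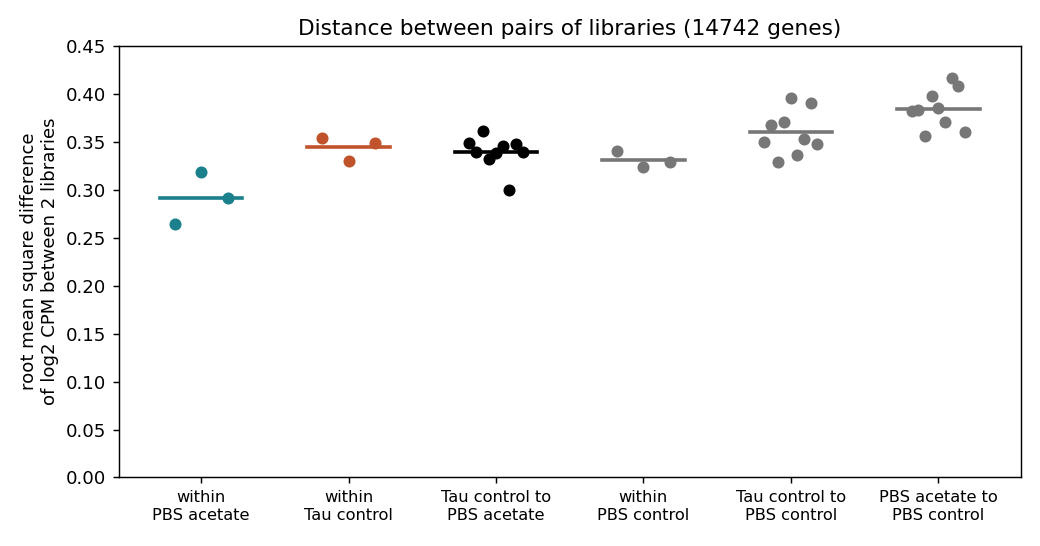
Root mean square difference of log2 CPM over 14742 genes (y axis) for each pair of libraries (points; line, mean), within and between the groups named on the x axis. The 9 distances between Tau control and PBS acetate mice (0.2995 to 0.3618) cover those within Tau control, and the largest distances are between PBS acetate and PBS control (0.3564 to 0.4168).

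No gene separated the 2 single treatments at the threshold used. With edgeR's quasi-likelihood test over all 12 mice and Benjamini-Hochberg adjustment over 14742 genes, 0 genes (0%) had an adjusted p below 0.1, and the smallest adjusted p was 0.117, for Slc5a3. At an unadjusted p below 0.05 there were 1635 genes (11.1%), 867 of them higher in Tau control (5.88%) and 768 lower (5.21%), and the 3 mice of one group did not overlap the 3 of the other for 2445 genes (16.6%). DESeq2 on the same 12 mice called 183 genes, 2.52% of the 7251 to which it gave an adjusted p, of which 137 were higher in Tau control (1.89%) and 46 lower (0.634%). On the 6 compared mice alone, DESeq2 called 158 genes and edgeR 27. The count depended on PBS acetate mouse 3 and on Tau control mouse 1, the most alike pair: edgeR called 89 genes without PBS acetate mouse 3 and 32 without Tau control mouse 1. Mice of the groups not compared enter through the shared spread, the filter and the normalization. Leaving them out in turn gave 7 calls without Tau acetate mouse 3, and 2 without PBS control mouse 3 or without Tau acetate mouse 1. Replicates differed by more than counting noise in every group, and the labels do not say more of them than that they are biological replicates, so the p-values measure the spread between these mice.

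How alike the treatments were can also be put as a bound on each gene. For 11217 of the 14742 genes (76.1%), the 95% interval of the difference between Tau control and PBS acetate lay within 1.5-fold either way (a log2 difference of 0.585), and for 9 genes (0.0611%) it lay wholly beyond. Beside it stand the other comparisons among these 3 groups, which share mice with it and with each other. For PBS acetate against PBS control, edgeR called 1303 genes and DESeq2 1371, and 73.2% of intervals lay within 1.5-fold. For Tau control against PBS control, edgeR called 2 genes and DESeq2 86, and 75.2% of intervals lay within 1.5-fold. Since this is bulk tissue, fewer cells of a type and less RNA per cell cannot be told apart in any of the values below.

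**Figure D2:**
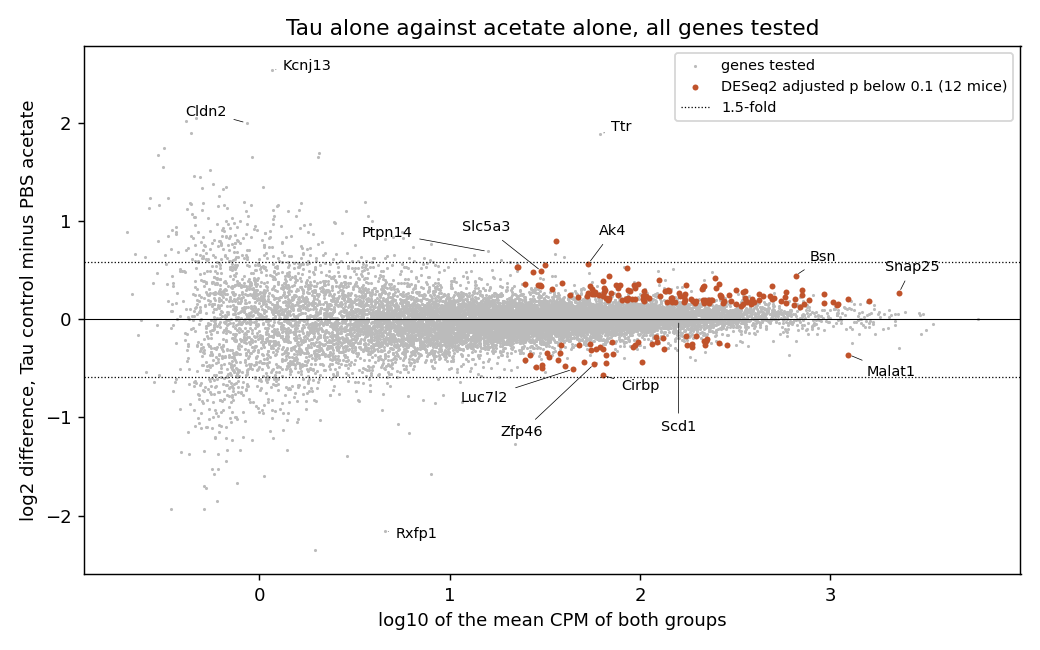
The log2 difference of each of 14742 genes, Tau control minus PBS acetate (y axis), against the log10 of its mean CPM in both groups (x axis), with the 183 genes called by DESeq2 on 12 mice in red. The points narrow around 0 as the level rises, genes beyond 1.5-fold (dotted lines) are mostly of low level, and Scd1 lies on the line of no difference.

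Scd1 and the myelin genes stood at about one level in both single treatments, below that of every PBS control mouse in Scd1 and in the sum of the myelin genes. Scd1, the stearoyl-CoA desaturase that makes monounsaturated fatty acids, was at 166, 161 and 153 CPM in the PBS acetate mice and 161, 149.6 and 168 CPM in the Tau control mice, against 214, 211 and 196 CPM in the PBS control mice. The single-treatment groups overlapped, and all 6 of their mice were below the 3 PBS control mice. The log2 difference between the single treatments was -0.0043, with a 95% interval of -0.14 to 0.13, while against PBS control it was -0.37 for Tau control (edgeR adjusted p = 0.0879) and -0.37 for PBS acetate (edgeR adjusted p = 0.0103). Structural myelin genes, the proteins and lipid enzymes of the oligodendrocyte sheath, summed to 8059, 6689 and 5907 CPM in PBS acetate and to 6510, 6250 and 7617 CPM in Tau control, against 11982, 9908 and 9312 CPM in PBS control. Of the 25 genes of that list, 0 were separated between the single treatments without overlap (all genes, 16.6%), and 0 reached an unadjusted p below 0.05 (all genes, 11.1%). Their median log2 difference was -0.04, where the median of all genes was -0.0023, and their log2 differences ran from -0.23 to 0.29. Mbp, myelin basic protein, was at 2588, 2184 and 1920.1 CPM in the PBS acetate mice and 2056, 2010.4 and 2364 CPM in the Tau control mice, and the groups overlapped. Its log2 difference of -0.06 carried a wide interval (-0.46 to 0.35). The interval of 16 of the 25 myelin genes lay within 1.5-fold (all genes, 76.1%).

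Acss2 and Mapt, the enzyme and the protein on which the study turns, differed little. Acss2 was at 52.96, 50.6 and 56.9 CPM in PBS acetate and 52.3, 57.6 and 57.1 CPM in Tau control, overlapping groups with a log2 difference of 0.06 (-0.10 to 0.21). Mapt, the gene of mouse tau, was at 565, 527 and 569.8 CPM and 572, 591 and 598 CPM, with the 3 Tau control mice just above the 3 PBS acetate mice and a log2 difference of 0.08 (-0.03 to 0.19). Of 27 tested genes for acetate, acetyl-CoA and acylation, 22 had an interval within 1.5-fold (all genes, 76.1%). DESeq2 called 1 of them, a share near that of all genes (2.52%). The gene called was Hdac3, a histone deacetylase, at 76.8, 75.2 and 79.9 CPM in PBS acetate and 66.6, 63.1 and 67.5 CPM in Tau control (log2 difference -0.23 ± 0.06 SE, edgeR adjusted p = 0.205, DESeq2 adjusted p = 0.0494). Lists whose members all had intervals within 1.5-fold were the 14 astrocyte genes, the 14 endothelial genes, the 12 oligodendrocyte precursor genes and the 34 oxidative phosphorylation genes. The 14 astrocyte genes, which are in the tissue throughout, summed to 5282 to 5807 CPM in PBS acetate and to 5485 to 5891 CPM in Tau control. Cholesterol synthesis (22 of 23 genes within 1.5-fold) and the list of tau, tau kinases and AD genes (23 of 24) were close to that.

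The 10 genes higher in Tau control with the smallest p did not pass the edgeR threshold, and Pdia4 among them is described below with the chaperones. Slc5a3 (chr16:92058322-92087473 in GRCm38), the sodium-coupled transporter that brings the osmolyte myo-inositol into cells, was at 24.2, 25.3 and 26.3 CPM in PBS acetate, 32.2, 36.7 and 37.4 CPM in Tau control and 32.7, 33.9 and 36.02 CPM in PBS control. The PBS acetate mice lay below the other 6 without overlap. The log2 difference between the single treatments was 0.49 ± 0.08 (SE; edgeR adjusted p = 0.117, DESeq2 adjusted p = 0.00114). Bsn (chr9:108096022-108190384), which encodes Bassoon, the large scaffold of the presynaptic active zone, was at 536, 536 and 597 CPM in PBS acetate, 668, 799 and 802 CPM in Tau control and 749, 728 and 683 CPM in PBS control, again with all PBS acetate mice lowest. Its log2 difference was 0.44 ± 0.08 (SE; edgeR adjusted p = 0.184, DESeq2 adjusted p = 0.00042). Ptpn14, a cytosolic tyrosine phosphatase, was at 11.1, 12.7 and 12.6 CPM in PBS acetate and 16.2, 21.95 and 20.7 CPM in Tau control (log2 difference 0.69 ± 0.13 SE). Gpr26, an orphan receptor, was at 24.7, 24.4 and 27.98 CPM and 30.5, 42.3 and 39.8 CPM (log2 difference 0.55 ± 0.11 SE). The zinc importer Slc39a10, the chondroitin sulfotransferase Chst11, the GTPase-activating protein Arhgap35, the RING finger gene Lonrf2 and the LIM homeobox factor Lhx9 were higher by log2 differences of 0.29, 0.31, 0.24, 0.23 and 0.50. For these 5 and for Ptpn14 and Gpr26 the 3 mice of each group did not overlap, as the rule that chose them required, and the edgeR adjusted p was 0.184.

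The 10 genes lower in Tau control with the smallest p likewise did not pass the edgeR threshold, and Luc7l2 and Rps14 among them are described below with their lists. Zfp46 (chr4:136284683-136293942), a zinc finger protein, was at 66.1, 67.3 and 65.9 CPM in PBS acetate, 53.7, 47.8 and 43.3 CPM in Tau control and 53.4, 56.3 and 45.9 CPM in PBS control. The PBS acetate mice were the highest and lay within 2 CPM of each other, and the other groups overlapped. Its log2 difference was -0.46 ± 0.09 (SE; edgeR adjusted p = 0.184, DESeq2 adjusted p = 0.00756). Cdc25b, a phosphatase that activates cyclin-dependent kinases, was at 25.8, 26.5 and 22.5 CPM in PBS acetate and 17.2, 17.5 and 17.3 CPM in Tau control (log2 difference -0.52 ± 0.10 SE). Tnip2, a partner of the NF-κB inhibitor A20, was at 37.4, 33.5 and 36.03 CPM and 26.2, 23.4 and 26.02 CPM (log2 difference -0.50 ± 0.11 SE). The ETS-domain repressor Erf, the collagen chain Col11a2, and Fam76b, Tmem191c and the secreted Adamtsl5 had log2 differences of -0.30, -0.48, -0.43, -0.36 and -0.76. The edgeR adjusted p of these 8 genes was 0.184 to 0.201. Bsn and Zfp46 were the genes called in each of 5 alternatives, which were picked from those run and share mice. These were DESeq2 on 12 and on 6 mice, edgeR on 6 mice, and edgeR without PBS acetate mouse 3 or without Tau control mouse 1. Over 22 alternatives, Slc5a3 was called in 11, Bsn in 9 and Zfp46 in 7.

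**Figure D3:**
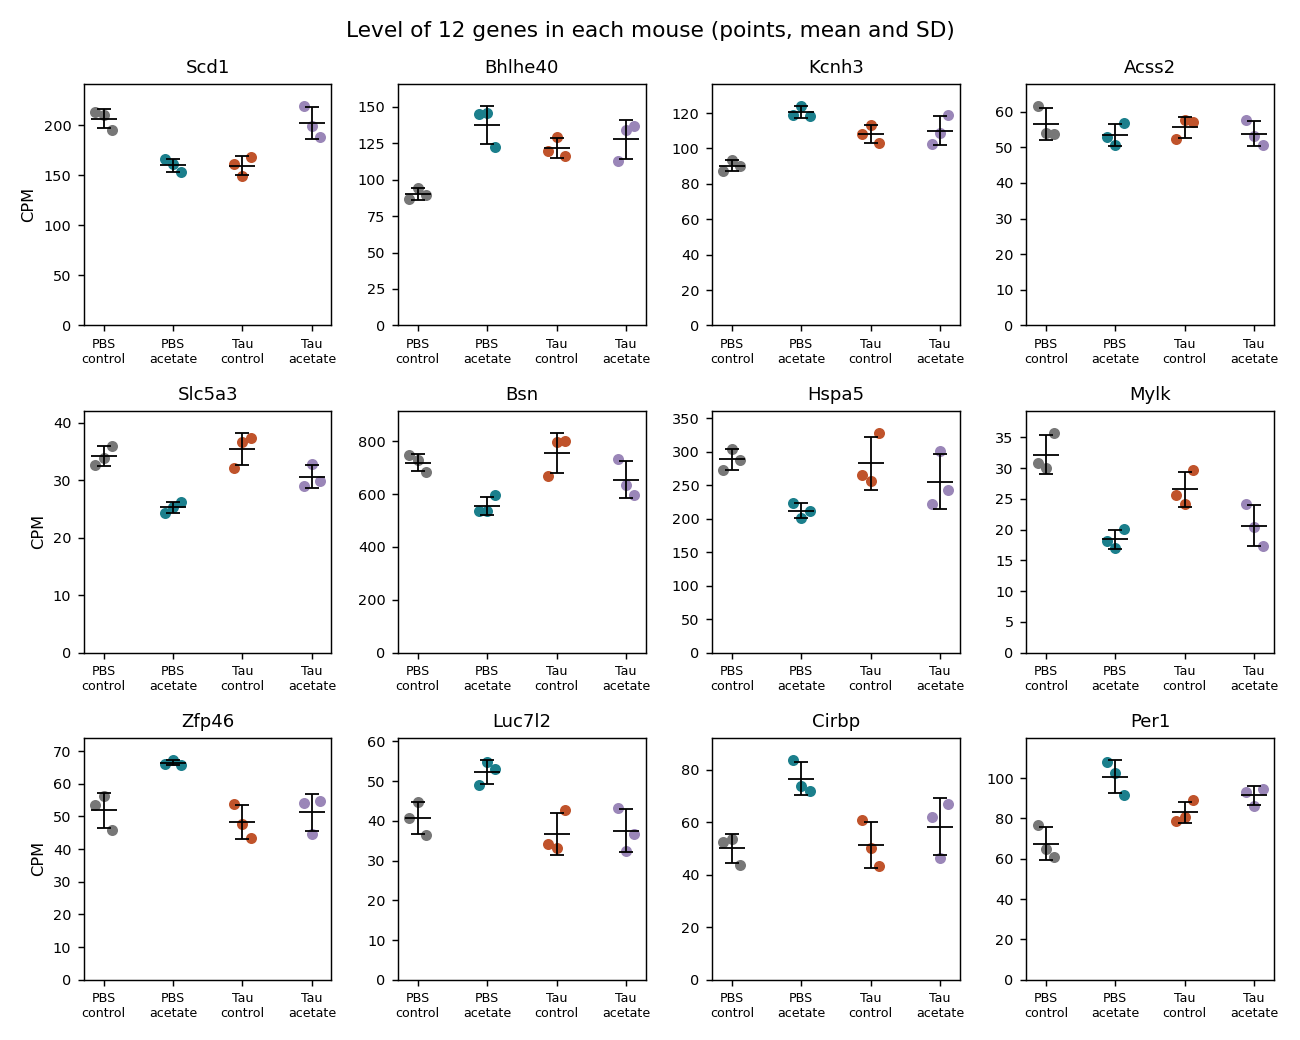
CPM of 12 genes (y axes, from 0) in each of the 12 mice (points), with the mean and SD of each group of 3. Scd1 has the same level in PBS acetate and Tau control, Slc5a3, Bsn, Hspa5 and Mylk are lowest in PBS acetate, and Zfp46, Luc7l2, Cirbp and Per1 are highest there.

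Chaperones were, with 2 exceptions, higher in Tau control. Of 26 chaperone genes tested, 24 were higher in Tau control than in PBS acetate, with a median log2 difference of 0.18, beside 49.3% of all genes above 0 and a median of -0.0023. At an unadjusted p below 0.05, 15 of the 26 were higher and 0 lower (all genes, 5.88% higher), 14 were higher without overlap (all genes, 8.04%), 0 were called by edgeR and 6 by DESeq2 (all genes, 1.89% higher). Summed over the list, the PBS acetate mice were at 5314, 5029 and 5266 CPM, the Tau control mice at 5673, 5646 and 5879 CPM, and the PBS control mice at 6026, 5787 and 6061 CPM. The 3 PBS acetate mice were thus the lowest, without overlap. An exact two-sided permutation test of 3 mice against 3 cannot go below 0.1, so none is given for this sum or the others below. The genes called by DESeq2, chosen here after their values were seen, comprise ER and cytosolic members.

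Hspa5, the ER chaperone BiP, was at 224, 201 and 212 CPM in PBS acetate, 265, 256 and 328 CPM in Tau control and 273, 304 and 288 CPM in PBS control. Its log2 difference was the largest of the list at 0.42 ± 0.12 (SE; edgeR adjusted p = 0.263, DESeq2 adjusted p = 0.0177), and Tau control mouse 3 stood well above the other Tau control mice. Pdia4, a disulfide isomerase of the ER, was at 33.9, 34.1 and 34.5 CPM in PBS acetate and 40.96, 43.2 and 47.8 CPM in Tau control, with little spread in the first group. Of the cytosolic members, Hspa8, the constitutive Hsc70, was at 477, 461 and 471 CPM in PBS acetate and 528, 529.9 and 573 CPM in Tau control (log2 difference 0.21 ± 0.05 SE, DESeq2 adjusted p = 0.0194). Hsph1, a nucleotide exchange factor for Hsp70, was at 328, 315 and 351 CPM and 382, 373 and 394 CPM (log2 difference 0.21 ± 0.05 SE, DESeq2 adjusted p = 0.0177). In both genes each Tau control mouse was above every PBS acetate mouse. Hsp90aa1, the inducible cytosolic Hsp90, and its partner Chordc1 were higher by log2 differences of 0.18 and 0.32, with DESeq2 adjusted p = 0.0531 and 0.0177. Against PBS control, in comparisons that share mice with this one, the median of the list was -0.26 for PBS acetate and -0.06 for Tau control.

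Hspa5 and 3 other ER members held the same element before their start sites, and their sequences are shown because Hspa5 had the largest difference of the list. The ER stress response element (ERSE) is known as a binding site of NF-Y and ATF6, and was searched as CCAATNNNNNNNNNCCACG on both strands of the 250 bases before each RefSeq start on GRCm38.p6. Of the 26 chaperone genes, 21 matched an entry of the promoter table, and Hspa8, Hsp90aa1, Hsp90ab1, Cryab and Manf did not. The element was present in 4 of the 21 (19%), against 35 of all 27025 genes with a promoter sequence (0.13%). The element was known for the ER stress response before the search, and the list was written to hold ER chaperones. These shares therefore describe the choice of element and list, and are not a result of the counts. The 4 windows are given below 5′ to 3′ on the strand of the gene, with each match in capitals. A match whose capitals begin with CGTGG is the element read on the opposite strand.
Hspa5 (chr2:34771840-34772089, plus strand): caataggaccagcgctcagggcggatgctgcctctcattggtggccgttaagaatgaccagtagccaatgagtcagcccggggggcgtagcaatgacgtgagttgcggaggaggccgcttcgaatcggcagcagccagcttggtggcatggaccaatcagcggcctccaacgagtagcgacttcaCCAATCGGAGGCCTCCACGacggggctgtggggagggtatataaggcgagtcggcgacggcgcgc
Hsp90b1 (chr10:86705445-86705694, minus strand): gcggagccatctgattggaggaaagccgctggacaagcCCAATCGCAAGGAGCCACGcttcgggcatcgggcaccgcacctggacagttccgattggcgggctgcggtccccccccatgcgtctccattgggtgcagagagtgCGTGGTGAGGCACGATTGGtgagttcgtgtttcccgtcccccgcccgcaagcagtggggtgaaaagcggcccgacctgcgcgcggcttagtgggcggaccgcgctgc
Calr (chr8:84846932-84847181, minus strand): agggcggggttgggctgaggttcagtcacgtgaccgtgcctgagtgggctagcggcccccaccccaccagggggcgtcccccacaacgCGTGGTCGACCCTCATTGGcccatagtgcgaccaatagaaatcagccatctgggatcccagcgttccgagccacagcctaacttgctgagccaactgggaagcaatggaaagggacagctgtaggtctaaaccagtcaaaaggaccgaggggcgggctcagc
Pdia6 (chr12:17266339-17266588, plus strand): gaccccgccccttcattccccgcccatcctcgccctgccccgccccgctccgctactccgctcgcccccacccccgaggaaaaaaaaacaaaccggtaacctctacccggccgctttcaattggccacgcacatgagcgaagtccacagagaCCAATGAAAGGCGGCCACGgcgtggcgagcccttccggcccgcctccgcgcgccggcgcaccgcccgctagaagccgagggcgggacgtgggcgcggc
Hsp90b1, the ER form of Hsp90, held 2 matches, and the other 3 genes 1 each. Beside the log2 difference of 0.42 for Hspa5 stood 0.17 for Hsp90b1 and 0.18 for the calcium-binding lectin chaperone Calr. The disulfide isomerase Pdia6 had 0.21, and the median of the chaperone list was 0.18. All 4 were higher in Tau control without overlap, as were 14 of the 26 list genes, these included, and 8.04% of all genes. None of the 4 passed the edgeR threshold. Pdia4, with the smallest p of the list, held no match of these letters in its window, and neither did the ER members Pdia3, Dnajb11 and Sdf2l1. The heat shock element, the site of HSF1, was searched as GAANNTTCNNGAA, which does not overlap the ERSE letters in these genes, and was present in 2 of the 21 (9.52%), the mitochondrial chaperonins Hspd1 and Hspe1, against 139 of the 27025 genes (0.514%). A match of letters is a description of the window and not of a bound factor.

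Synaptic vesicle and SNARE genes, which dock and release transmitter vesicles, were also mostly higher in Tau control. Of 23 genes tested, 18 were above 0 with a median log2 difference of 0.12, 13 were higher and 0 lower at an unadjusted p below 0.05 (all genes, 5.88% higher), 13 were higher without overlap (all genes, 8.04%), and 7 were called by DESeq2 (all genes, 1.89% higher) and 0 by edgeR. Their sum was 15513, 15100.0 and 16801 CPM in PBS acetate, 17135, 17979 and 17650.0 CPM in Tau control and 18232, 17251 and 18333 CPM in PBS control. The PBS acetate mice were lowest, with mouse 3 nearest to the other group. Snap25, the plasma membrane SNARE of presynaptic terminals, was at 2038, 1866 and 2342 CPM in PBS acetate, 2469.9, 2504 and 2545 CPM in Tau control and 2775, 2544 and 2929 CPM in PBS control (log2 difference 0.27 ± 0.08 SE, edgeR adjusted p = 0.234, DESeq2 adjusted p = 0.0473). Syn1 and Syn2, the synapsins that tether vesicles to actin, were higher in Tau control by log2 differences of 0.22 and 0.29, the vesicle glycoprotein gene Sv2b by 0.34, and the active zone genes Rims1 and Pclo by 0.30 and 0.23. These 6 and Bsn are the 7 that DESeq2 called, named after their values were seen. Syt2, the fast calcium sensor, had the largest difference of the list by size, in the other direction (log2 difference -0.49, interval -1.07 to 0.10), with its high values in PBS acetate mice 1 and 2 (43.0 and 32.9 CPM, against 21.7 CPM in mouse 3 and 18.9, 27.3 and 23.3 CPM in Tau control).

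**Figure D4:**
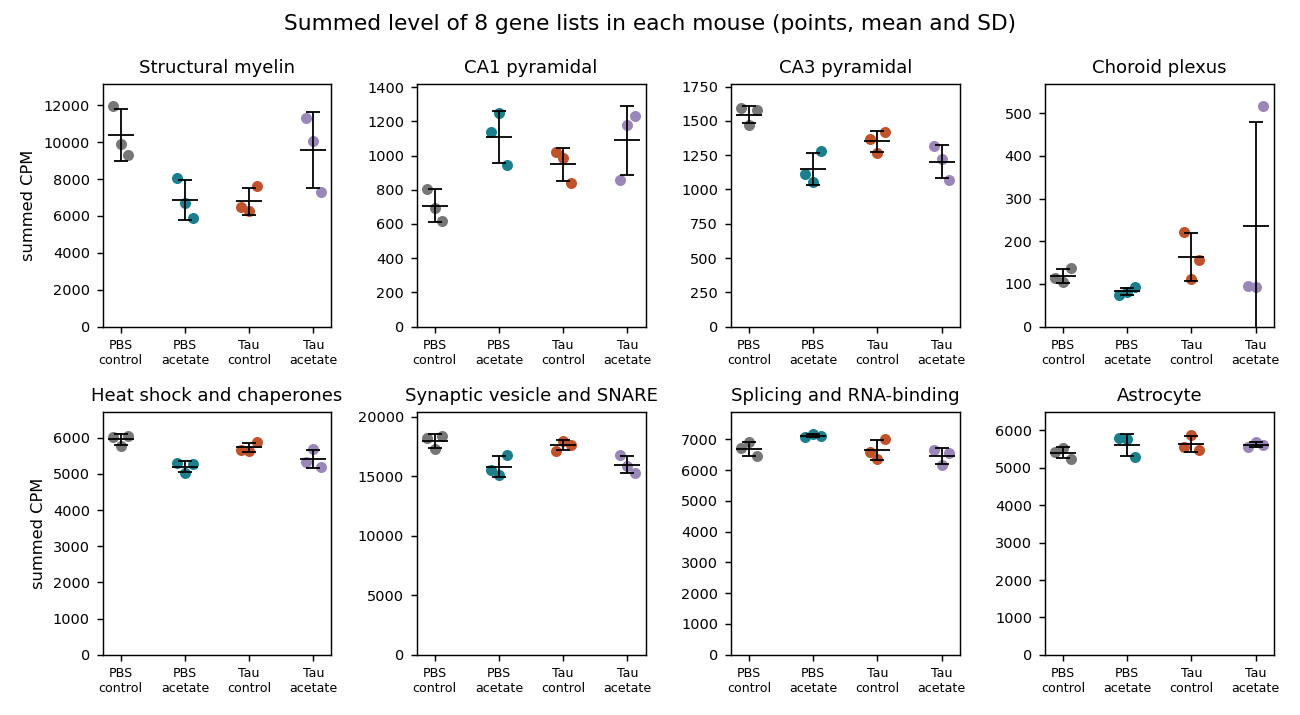
Summed CPM of 8 gene lists (y axes, from 0) in each of the 12 mice (points), with the mean and SD of each group of 3; the lower SD bar of the choroid plexus list in Tau acetate runs below 0 and is not drawn in full. Structural myelin overlaps between PBS acetate and Tau control, the chaperone and synaptic vesicle sums are lowest in PBS acetate among the first 3 groups, and the choroid plexus sum is higher in Tau control than in PBS acetate in every mouse.

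Among other genes of neuronal signaling the single treatments differed in both directions. Of 30 potassium channel genes, 8 were higher and 4 lower in Tau control at an unadjusted p below 0.05 (all genes, 5.88% higher and 5.21% lower), with a median log2 difference of 0.0045. DESeq2 called 5 of them higher (all genes, 1.89%) and 0 lower, among which the Kv3 channels Kcnc1 and Kcnc2, the Eag channel Kcnh1 and the M-current channel Kcnq5 were higher by log2 differences of 0.19, 0.28, 0.28 and 0.36. Kcnh3, a channel of the Elk family in forebrain neurons, went the other way, at 119, 124 and 118 CPM in PBS acetate and 108, 114 and 103 CPM in Tau control, with both groups above the 87.2, 93.4 and 90.1 CPM of PBS control. Its log2 difference between the single treatments was -0.15 ± 0.06 (SE; edgeR adjusted p = 0.351). Gabbr2, a subunit of the metabotropic GABA receptor, was higher in Tau control by a log2 difference of 0.17 (DESeq2 adjusted p = 0.0748). Of 17 GABA receptor genes, 3 were higher and 0 lower at an unadjusted p below 0.05 (all genes, 5.88% and 5.21%). Without overlap, 4 were higher and 1 lower (all genes, 8.04% and 8.55%). Intervals lay within 1.5-fold for 15 of these 17 and for 17 of 20 ionotropic glutamate receptor genes (all genes, 76.1%). Of 20 immediate early genes, which follow neuronal activity, 6 were above 0, with a median log2 difference of -0.15, and 2 were higher and 3 lower at an unadjusted p below 0.05 (all genes, 5.88% and 5.21%). DESeq2 called 1 lower, Per1, which is described below with the clock genes, and 1 higher, the orphan nuclear receptor gene Nr4a3 (101, 104 and 122 CPM in PBS acetate, 139.8, 128 and 163 CPM in Tau control). Dusp1, a phosphatase of MAP kinases, had the largest difference of the list by size (log2 difference -0.44, interval -0.80 to -0.07), with overlapping groups.

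Genes of RNA processing were, with few exceptions, slightly lower in Tau control. Of 31 splicing and RNA-binding genes tested, 3 were above 0 and the median log2 difference was -0.09, 9 were lower and 0 higher at an unadjusted p below 0.05 (all genes, 5.21% lower), and 10 were lower without overlap (all genes, 8.55%). DESeq2 called 5 of them lower (all genes, 0.634%) and edgeR 0. Luc7l2, a component of the U1 snRNP, was at 48.9, 54.9 and 52.96 CPM in PBS acetate, 34.3, 33.2 and 42.8 CPM in Tau control and 40.8, 44.6 and 36.5 CPM in PBS control. The PBS acetate mice were highest without overlap, and the log2 difference was -0.51 ± 0.11 (SE; edgeR adjusted p = 0.201, DESeq2 adjusted p = 0.0103). The splicing factors Srsf5 and Rbm25 and the splicing-related Pnisr had log2 differences of -0.26, -0.17 and -0.25, each with tight groups. Cirbp, the cold-inducible RNA-binding protein, which is on none of the lists and was chosen after its value was seen, was at 83.7, 73.95 and 71.9 CPM in PBS acetate, 60.8, 50.01 and 43.2 CPM in Tau control and 52.6, 53.7 and 43.7 CPM in PBS control (log2 difference -0.57 ± 0.15 SE, DESeq2 adjusted p = 0.0103). Elavl2, a neuronal RNA-binding protein also on no list and chosen in the same way, went the other way (log2 difference 0.52 ± 0.13 SE, DESeq2 adjusted p = 0.00756). Of 12 long noncoding RNAs, 2 were above 0 with a median of -0.22, and 6 were lower without overlap (all genes, 8.55%). Malat1, a nuclear RNA of splicing speckles, was at 1558, 1297 and 1345 CPM in PBS acetate and 1058, 1018 and 1194 CPM in Tau control, with all Tau control mice lower (log2 difference -0.36 ± 0.10 SE, DESeq2 adjusted p = 0.0205). Of 32 cytosolic ribosomal protein genes 3 were above 0, with a median of -0.07, and 31 of 32 intervals lay within 1.5-fold (all genes, 76.1%). The largest of these differences was that of Rps14 (161, 141 and 145 CPM in PBS acetate, 129, 112 and 120.2 CPM in Tau control, log2 difference -0.31 ± 0.07 SE), and counts of ribosomal protein genes are uncertain where reads also match their processed pseudogenes. Across genes, the log2 difference had a Spearman correlation of -0.125 with GC content and of 0.118 with transcript length. With each library's trend with both removed, the median log2 difference was -0.10 for the splicing list and -0.25 for the long noncoding RNAs, and that of the ribosomal list was closer to 0, at -0.03.

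Clock and hormone-responsive genes were also below 0 more often than above. Per1, a light- and glucocorticoid-responsive repressor of the circadian clock, was at 108, 103 and 91.6 CPM in PBS acetate, 78.97, 80.9 and 89.1 CPM in Tau control and 76.6, 64.6 and 61.1 CPM in PBS control, so that Tau control lay between the other groups without overlap. Its log2 difference between the single treatments was -0.28 ± 0.08 (SE; edgeR adjusted p = 0.235, DESeq2 adjusted p = 0.0916). Dbp, a clock output factor, was at 78.7, 77.2 and 74.9 CPM in PBS acetate and 67.3, 55.6 and 45.7 CPM in Tau control (log2 difference -0.45 ± 0.15 SE, DESeq2 adjusted p = 0.0473). Of 18 clock genes, 6 were above 0 with a median of -0.06, and 1 was higher and 6 lower at an unadjusted p below 0.05 (all genes, 5.88% and 5.21%). Bhlhe40, a clock-linked repressor, overlapped between the groups (log2 difference -0.18, interval -0.34 to -0.0098). Of 18 tested glucocorticoid and FoxO targets, 4 were above 0 with a median of -0.21, 7 were lower at an unadjusted p below 0.05 (all genes, 5.21%), and 8 were lower without overlap (all genes, 8.55%). Fbxo32, the ubiquitin ligase atrogin-1, was at 39.7, 35.6 and 33.2 CPM in PBS acetate, 32.9, 23.8 and 28.8 CPM in Tau control and 43.3, 42.5 and 41.1 CPM in PBS control, with Tau control the group farther from PBS control (log2 difference -0.34 ± 0.10 SE, edgeR adjusted p = 0.226). Ddit4, an inhibitor of mTORC1, was at 71.8, 66.1 and 64.7 CPM in PBS acetate and 56.3, 57.97 and 51.96 CPM in Tau control (log2 difference -0.28 ± 0.07 SE, DESeq2 adjusted p = 0.0523).

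Markers of the hippocampal fields and of tissue at their border also lay to one side or the other, and their part in the results above was not tested. Of 12 CA3 pyramidal markers 11 were higher in Tau control, with a median log2 difference of 0.37, summing to 1116, 1053 and 1281 CPM in PBS acetate and to 1366, 1269 and 1416 CPM in Tau control, ranges that overlap. The PBS control sums, 1591, 1473 and 1576.5 CPM, were above both groups without overlap. Nectin3, an adhesion molecule of CA3 neurons, was at 24.7, 20.1 and 38.8 CPM in PBS acetate and 40.2, 42.8 and 48.8 CPM in Tau control (log2 difference 0.66 ± 0.24 SE). Of 10 CA1 markers 1 was higher in Tau control and the median was -0.17, with sums of 1138, 1247 and 946 CPM in PBS acetate and 1024, 985 and 838 CPM in Tau control. Here the PBS control sums, 807, 695 and 615 CPM, were below both groups without overlap. The part of these fields in the differences from PBS control was not tested either. The CA1 marker higher in Tau control was Dcn, decorin, which meningeal cells also make, at 3.94, 5.00 and 2.81 CPM in PBS acetate and 5.26, 11.01 and 5.57 CPM in Tau control. The transcription factor gene Pou3f1 had a log2 difference of -0.43 (DESeq2 adjusted p = 0.0492). Of 12 dentate granule markers 2 were higher, with a median of -0.11. None of these markers was called by edgeR.

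The list with the largest median difference of the 39 was that of choroid plexus genes, whose tissue lies in the ventricle beside the hippocampus. Of 13 genes, 11 were higher in Tau control, with a median log2 difference of 1.34. At an unadjusted p below 0.05, 6 were higher (all genes, 5.88%), and 9 were higher without overlap (all genes, 8.04%). Of the list 0 were called by edgeR or DESeq2, but DESeq2 gave no adjusted p to Kcnj13, Cldn2 or F5, named below. Over 22 alternatives, Ttr was called in 1 and Kcnj13 and F5 in 2 each. Their sum was 75.0, 79.9 and 92.1 CPM in PBS acetate, 222, 111 and 155 CPM in Tau control and 113, 104 and 137 CPM in PBS control. Ttr, transthyretin, the main secreted protein of the plexus, was at 22.2, 21.5 and 35.9 CPM in PBS acetate and 148, 53.7 and 91.2 CPM in Tau control, with Tau control mouse 1 by far the highest and an interval of -0.36 to 4.12. Kcnj13, a potassium channel of the plexus epithelium, was at 0.258, 0.309 and 0.447 CPM in PBS acetate and 2.74, 1.06 and 2.21 CPM in Tau control (log2 difference 2.54, interval 0.82 to 4.25). Cldn2, its tight junction claudin, and F5, coagulation factor V, were higher by log2 differences of 2.00 and 1.69, with lowest Tau control values of 1.01 and 2.98 CPM and highest PBS acetate values of 0.452 and 1.03 CPM. These 3 are among the 9 genes whose interval lay wholly beyond 1.5-fold, which were named after their values were seen. The intervals are per gene and not adjusted over the genes tested. The edgeR adjusted p of the 9 genes was 0.205 to 0.315. The other higher ones were the cilia genes Cfap299 (log2 difference 1.89) and Tekt4 (log2 difference 2.02) and Traf1, an adapter of TNF receptors at 0.129, 0.206 and 0.192 CPM in PBS acetate and 0.721, 0.929 and 0.610 CPM in Tau control (log2 difference 2.05). The 3 lower ones were the germline factor Nanos2 (log2 difference -1.60), the small nucleolar RNA Snora7a (log2 difference -1.66) and the relaxin receptor Rxfp1 (log2 difference -2.16). All 9 were low in level, and Rxfp1 varied widely within PBS acetate (12.3, 7.43 and 2.62 CPM, against 1.44, 1.86 and 1.68 CPM in Tau control). Tshz2, a transcription factor gene on the neocortex list, stood in the same order in those mice (54.3, 31.6 and 8.56 CPM in PBS acetate and 8.94, 19.2 and 10.6 CPM in Tau control). Ependymal and motile cilia genes were above 0 for 13 of 15, with a median of 0.37 and overlapping sums, and both groups were below PBS control in sum (57.9, 49.2 and 50.02 CPM in PBS acetate, 46.5, 71.3 and 67.9 CPM in Tau control, 114, 94.1 and 104 CPM in PBS control).

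Most lists of glial and vascular genes held few genes that separated the groups. The reactive astrocyte, meningeal and fibroblast, homeostatic microglia, interferon response and mural genes were mostly higher in Tau control. The astrocyte, oligodendrocyte precursor and disease-associated microglia genes were mostly lower. Of 11 reactive astrocyte genes 10 were above 0 with a median log2 difference of 0.14, and 4 were higher without overlap (all genes, 8.04%), of which 1 reached an unadjusted p below 0.05 (all genes, 5.88% higher). This was S1pr3, a receptor for sphingosine 1-phosphate (log2 difference 0.31, interval 0.04 to 0.57). Cd44, a hyaluronan receptor, had the largest log2 difference of the list at 0.55 (interval -0.07 to 1.17), and Gfap, the intermediate filament of astrocytes, had a log2 difference of 0.08 (-0.11 to 0.27). Of 14 meningeal and fibroblast genes 12 were above 0 with a median of 0.17, and 4 were higher without overlap (all genes, 8.04%). At an unadjusted p below 0.05, 2 were higher (all genes, 5.88%), Dcn and the proteoglycan gene Bgn (log2 difference 0.26, interval 0.02 to 0.51). edgeR and DESeq2 called 0 genes of either list. Of 16 homeostatic microglia genes 13 were above 0 with a median of 0.06, and 15 had intervals within 1.5-fold (all genes, 76.1%). Without overlap, 2 of them were higher and 0 lower (all genes, 8.04% and 8.55%). C1qb, a complement subunit made by microglia, was at 37.8, 39.2 and 39.99 CPM in PBS acetate and 48.8, 41.5 and 44.5 CPM in Tau control (log2 difference 0.20 ± 0.09 SE). Of 10 disease-associated microglia genes 0 were higher and 1 lower at an unadjusted p below 0.05 (all genes, 5.88% and 5.21%), and Clec7a, a receptor of activated microglia, was under 1 CPM in all 6 mice. Of 16 interferon response genes 13 were above 0 with a median of 0.24. Higher at an unadjusted p below 0.05 was 1, a share near that of all genes (5.88%). It was Ifi44, under 1 CPM in all 6 mice, at 0.0646, 0.206 and 0.447 CPM in PBS acetate and 0.865, 0.531 and 0.610 CPM in Tau control. C3, the central complement component, was at 1.49, 0.619 and 0.894 CPM in PBS acetate, 1.44, 4.05 and 3.74 CPM in Tau control and 9.95, 5.17 and 6.77 CPM in PBS control, with Tau control mouse 1 within the PBS acetate range (log2 difference 1.65, interval 0.37 to 2.93). Of 13 mural genes 10 were above 0. Among them Mylk, the myosin light chain kinase of smooth muscle, was at 18.2, 17.02 and 20.1 CPM in PBS acetate, 25.7, 24.2 and 29.8 CPM in Tau control and 30.9, 29.96 and 35.8 CPM in PBS control (log2 difference 0.53 ± 0.12 SE, edgeR adjusted p = 0.184, DESeq2 adjusted p = 0.0177). Gpr17, a receptor of oligodendrocyte precursors about to differentiate, was at 24.9, 27.8 and 24.1 CPM in PBS acetate and 31.01, 32.6 and 34.5 CPM in Tau control, without overlap (log2 difference 0.35 ± 0.09 SE, DESeq2 adjusted p = 0.0484). Ak4, a mitochondrial adenylate kinase, and Elavl2, a neuronal RNA-binding protein, are on no list, were chosen for their small DESeq2 p, and were higher in Tau control by log2 differences of 0.56 and 0.52 (DESeq2 adjusted p = 0.00539 and 0.00756).

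**Figure D5:**
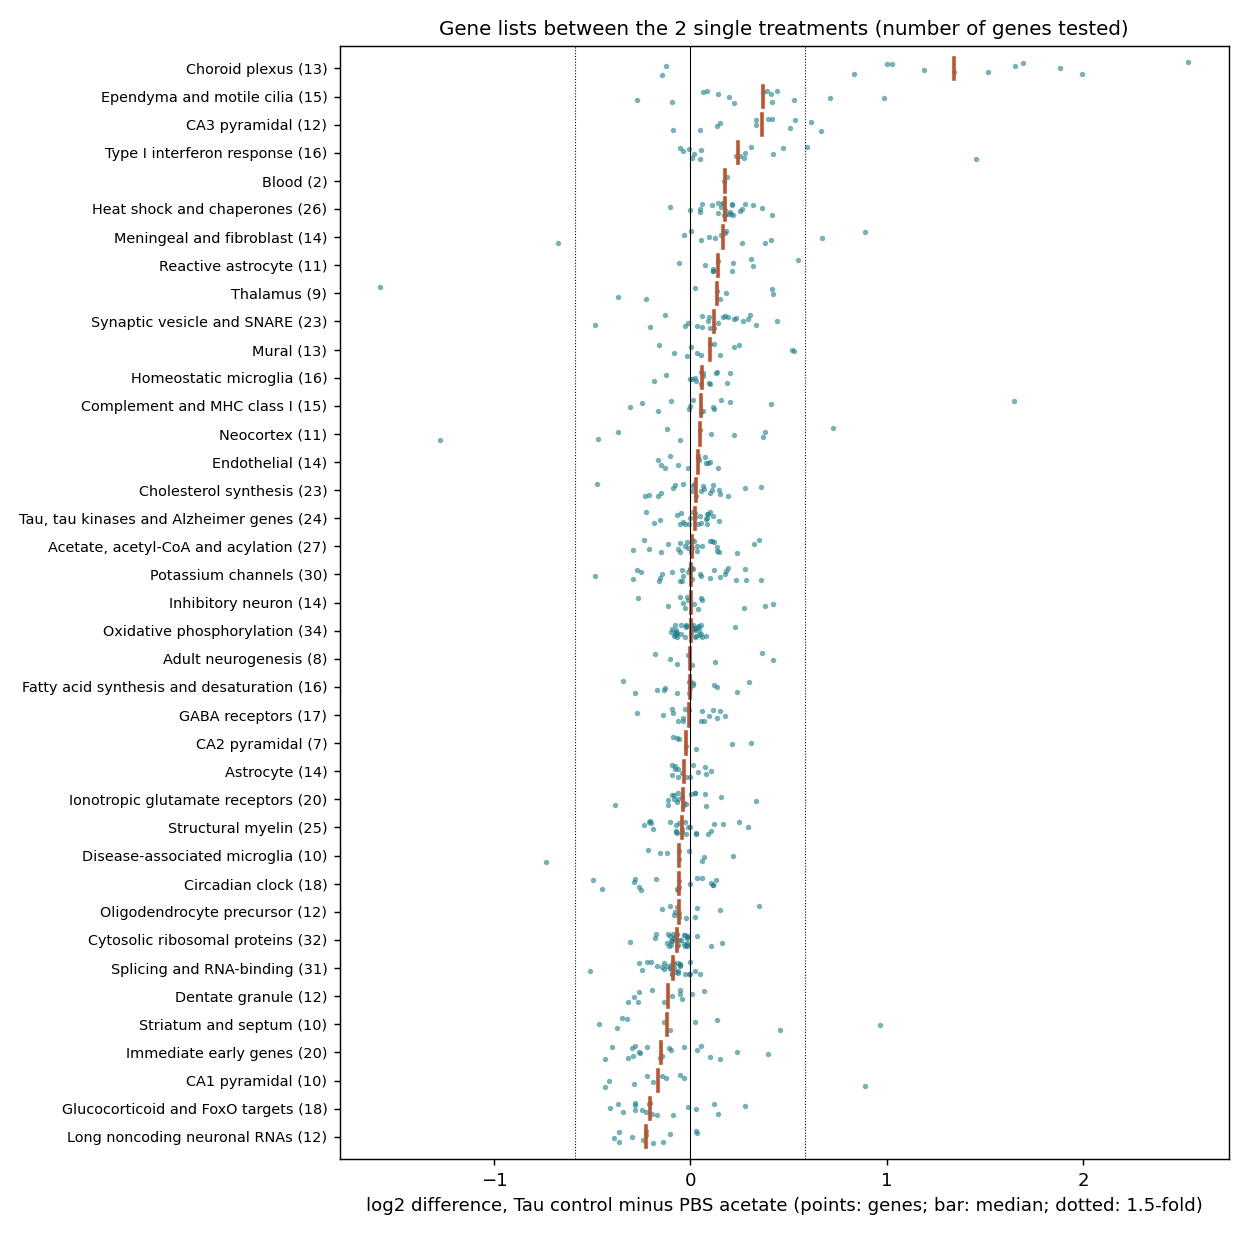
The log2 difference of each tested gene of 39 lists, Tau control minus PBS acetate (x axis; points, genes; bar, median; dotted lines, 1.5-fold), with the lists in order of their median and the number of genes tested in brackets. The medians run from -0.22 for the long noncoding RNAs to 1.34 for the choroid plexus genes. Most genes of the chaperone, synaptic vesicle, splicing and ribosomal lists lie on one side of 0, with some of each on the other.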

How the data were processed

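RNA-seq of 12 mice was analysed from the raw counts that the authors deposited for 24985 genes in each mouse. No read was counted for 5357 of these. The authors aligned reads with STAR 2.5.2a to GRCm38, used SAMtools 1.1, and counted exonic reads on the reverse strand with HTSeq 0.9.1; no normalization had been applied. Genes were kept by filterByExpr (minimum count 10, minimum total 15), which left 14742. They were normalized by TMM (factors 0.99 to 1.013) and fitted with the robust quasi-likelihood F test of edgeR 4.0.16 in R 4.3.3 with 1 mean per group over all 12 mice (common biological coefficient of variation 7.25%), and the contrast Tau control minus PBS acetate was adjusted by Benjamini-Hochberg with a threshold of 0.1 on the adjusted p. The SE and 95% intervals come from the F statistic of each gene, without adjustment over the genes tested. DESeq2 1.42.0, which the study used with a Wald test, was the alternative, and adjusted p-values that it left as NA were kept so. CPM are computed after TMM, distances between libraries with a prior count of 2. Intervals cover the spread between mice at totals of 12983233 to 20218340 reads.

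The groups, the 39 gene lists and the tests were chosen with earlier results of these data known. Named genes were the 10 with the smallest p in each direction, at a mean of at least 1 CPM and without overlap of the groups. To these were added the member with the largest difference of a described list, and Acss2, Mapt, Scd1, Fbxo32, Bhlhe40, Per1, Kcnh3, Mylk and Xist. Since edgeR called none, the 20 do not pass the threshold. List members called by DESeq2, the 9 genes beyond 1.5-fold and the further examples Hsp90b1, Calr, Pdia6, Mbp, Ttr, Ak4, Elavl2, Cirbp, S1pr3, Gfap and Bgn were chosen after their values were seen. A few list members are counted in their lists and not reported here by name. Gene coordinates are those of GENCODE M21, which has 24534 of the symbols, and promoter sequences those of RefSeq on GRCm38.p6. The fits were tested on simulated counts. Alternatives were DESeq2's size factors, no filter, the 6 compared mice alone, an adjusted p below 0.05, a test against a 1.2-fold change, the replicate block, thinned counts and each mouse left out. Removal of GC and length trends and leaving out 2 mice together were added after seeing the data.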

Additional observations from a re-analysis of the deposited data

How the results depend on the processing

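The number of genes called by edgeR, 0, stayed at 0 with DESeq2's size factors, at an adjusted p below 0.05, in the test against a 1.2-fold change and after removal of GC and length trends. It was 28 with no filter on low counts (15 higher and 13 lower in Tau control), 183 by DESeq2 on 12 mice (137 and 46), 158 by DESeq2 on 6 mice (102 and 56), 27 by edgeR on 6 mice (11 and 16) and 1 with thinned counts (Slc5a3, higher). Leaving out each mouse in turn gave 0 to 89 calls, 0 to 68 higher and 0 to 21 lower. The highest count was without PBS acetate mouse 3, followed by 32 without Tau control mouse 1 (22 and 10), and without both of them 78 were called (56 and 22). The cause was not tested. Over the alternatives the adjusted p of a gene varied widely, from 0.00114 to 1 for Slc5a3, 1.99e-05 to 1 for Bsn, 0.000572 to 1 for Zfp46, 0.000938 to 1 for Hspa5 and 0.000181 to 1 for Cirbp, lowest by DESeq2 and 1 in the test against a 1.2-fold change. In that test the adjusted p was 1 for all named genes. Of the 183 DESeq2 calls on 12 mice, 113 were also called by DESeq2 on 6 mice, which is 61.7% of the first list and 71.5% of the second. With the replicate block edgeR called 1 gene, with an adjusted p of 0.0791 for the log2 difference of Slc5a3. The deviations of same-numbered mice of the 2 groups correlated at -0.105, 0.0316 and 0.00238, and not every mouse correlated best with its own number, so the numbers were not taken to pair the mice. The number of genes bounded within 1.5-fold was 10128 to 11869 under 19 alternatives. The mean distance between the groups was 0.97 over the 500 most variable genes (0.979 within Tau control and 0.801 within PBS acetate) and 0.186 over genes with a mean of at least 10 CPM, and the mean correlation was 0.6984 and 0.9922 over these and 0.9947 by Spearman. The median of the chaperone list ranged from 0.1481 to 0.2024 over 19 alternatives, of the synaptic vesicle list from 0.1029 to 0.1835, of the splicing list from -0.1246 to -0.04123, of the ribosomal list from -0.1076 to -0.01309, of the CA1 list from -0.324 to -0.07336, of the CA3 list from 0.2298 to 0.6274 and of the choroid plexus list from 1.176 to 1.581. The structural myelin median crossed 0 (-0.1335 to 0.07618). Differences near 0 changed sign. The log2 difference of Scd1 was 0.00325 with thinned counts, and that of Gfap was -0.004989 without PBS acetate mouse 3 and Tau control mouse 1 together. Leaving out each mouse in turn gave -0.042 to 0.041 for Scd1, -0.15 to 0.058 for Mbp, -1.59 to 0.19 for Clec7a (0.19 without PBS acetate mouse 3) and -0.27 to 0.71 for Calb2, an interneuron and mossy cell gene (-0.27 without Tau control mouse 2). Depth limits genes near the filter, whose intervals are too wide to bound a 1.5-fold difference.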
